A study of Mus musculus with 3 samples.

Results

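The polyamine synthesis genes described here are the 8 members of a fixed list, Odc1, Azin1, Oaz1, Oaz2, Amd1, Srm, Sms and Sat1, and all 8 were among the 17931 genes of the count table. They were followed across the 8 annotated cell classes and the 3 libraries of a single-cell RNA sequencing study of unmanipulated mouse corneal epithelium. All libraries came from healthy C57BL/6J mice, and each pooled several animals, so that differences between mice within a library could not be seen. Library 1 pooled 4 corneas of 2 males aged 20 weeks, library 2 pooled 4 corneas of 2 females aged 11 weeks and library 3 pooled 7 corneas of 7 males aged 10 weeks. The classes were those the authors assigned to each cell, called here limbal, basal, TAC1, TAC2 (2 transit-amplifying classes), wing, superficial, conjunctival and immune.

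Polyamines (putrescine, spermidine and spermine) are small positively charged molecules that bind nucleic acids and are needed for growth and translation. Ornithine decarboxylase (Odc1) makes putrescine from ornithine. S-adenosylmethionine decarboxylase (Amd1) makes the donor of the aminopropyl groups that spermidine synthase (Srm) and spermine synthase (Sms) add in turn. Antizymes (Oaz1, Oaz2) bind ornithine decarboxylase and send it to the proteasome, and the antizyme inhibitor (Azin1), an ornithine decarboxylase homologue without activity, takes antizyme away from it. Spermidine/spermine acetyltransferase (Sat1) acetylates both higher polyamines so that they are exported or oxidised. Much of this control acts on translation and protein stability, which transcript counts do not read.

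On GRCm38 (GENCODE M21), Odc1 lies at chr12:17544794-17551505, Azin1 at chr15:38487427-38519266, Oaz1 at chr10:80826656-80829290 and Oaz2 at chr9:65668001-65690300. Amd1 lies at chr10:40287458-40302186, Srm at chr4:148591503-148594993, and the X-linked Sms and Sat1 at chrX:157443855-157492287 and chrX:155213132-155216449.

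Antizyme synthesis needs a +1 ribosomal frameshift, which polyamines promote. The 30 bases around the frameshift site are shown because the slip takes place there in both antizymes. Capitals mark the codon before the slip and the stop codon TGA of the first frame, as GENCODE M21 transcripts have them:
Oaz1: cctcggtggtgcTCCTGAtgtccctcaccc
Oaz2: cctctgtggtgcTCCTGAtgcccctcaccc
Both sites had 28 of 30 bases in common.

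The promoters of Odc1 and Sat1 are shown because these genes begin and end the route and were the members with the largest changes between limbal and basal cells. Each runs from 250 bases before to 50 after the RefSeq gene start (GRCm38.p6), Odc1 at chr12:17544623-17544922 on the plus strand and Sat1 at chrX:155216400-155216699 on the minus strand. Capitals mark every match to the GC box GGGCGG on either strand.
Odc1: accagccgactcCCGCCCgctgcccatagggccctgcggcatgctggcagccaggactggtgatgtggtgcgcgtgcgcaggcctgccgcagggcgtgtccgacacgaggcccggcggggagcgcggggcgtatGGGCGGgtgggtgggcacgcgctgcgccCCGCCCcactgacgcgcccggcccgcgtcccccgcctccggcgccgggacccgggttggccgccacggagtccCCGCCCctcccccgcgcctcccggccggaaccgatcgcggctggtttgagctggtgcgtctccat
Sat1: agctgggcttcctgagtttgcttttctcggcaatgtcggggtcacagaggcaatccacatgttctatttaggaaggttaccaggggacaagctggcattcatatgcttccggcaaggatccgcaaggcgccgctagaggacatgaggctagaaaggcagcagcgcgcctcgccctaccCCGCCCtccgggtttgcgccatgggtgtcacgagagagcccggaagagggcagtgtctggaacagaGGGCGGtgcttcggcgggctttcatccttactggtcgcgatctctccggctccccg
The Odc1 window held 4 matches and the Sat1 window 2, and 35.7% of the 32851 mouse promoters of this length held at least 1. The RefSeq promoter table matched 6 of the 8 genes, with 2 entries for Sms. The E-box CACGTG, the site that Myc proteins bind, was in 1 of these 7 windows, the upstream Sms entry, and in 7.15% of all promoters. The TATA box TATAAA on either strand was in the Oaz1 window alone among the 7, and in 13.6% of all.

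The libraries held 9488 to 17350 cells and 177449217 to 190393121 unique molecular identifiers (UMIs, 1 per captured molecule), and median depth was 16159.5 UMIs per cell in library 1, against 8334 in library 3. Of the members, Oaz1 had the most UMIs over all cells, 487713, followed by Sat1 with 180354 and Odc1 with 126290. Azin1, Amd1, Srm, Oaz2 and Sms had 14933, 13216, 12386, 6363 and 5915. The 3′ kit counts transcript ends, so levels are per molecule and not per length, and they are compared here within a gene only. Many class markers went with the class names, and some did not. Gpha2 was highest in limbal cells (2123 ± 117 CPM), Muc4 and Krt78 in superficial cells, Krt4, Krt19 and Krt8 in conjunctival cells and Mki67 and Top2a in TAC2 cells. Krt13, listed as conjunctival, was highest in superficial cells (9661 ± 696 CPM, against 7365 ± 553 in conjunctival cells). Cd63, listed as limbal, had 202 ± 75.2 CPM in immune and 95.1 ± 3.23 in limbal cells. Krt14, listed as basal, was highest in limbal cells (2780 ± 1025 CPM, against 498 ± 154 in basal cells). Limbal cells also carried Krt13, at 749.6 ± 74.9 CPM against 25.5 ± 10.7 in basal cells. Ptprc, a leukocyte surface protein, was at 0 in limbal, TAC1, TAC2 and superficial sums and had 262 ± 60.9 CPM in immune cells. The melanocyte gene Mlana and the endothelial gene Pecam1 stayed under 1 CPM in every class. The melanocyte genes Dct and Pmel did not. Among epithelial classes Dct ran from 0.214 ± 0.306 CPM in conjunctival to 3.28 ± 0.615 in basal cells. Pmel ran from 0.341 ± 0.327 in limbal to 1.66 ± 0.256 in TAC2 cells, and had 7.36, 0 and 0 in immune sums. Of the cell barcodes, 32, 57 and 53 sequences were shared by libraries 1 and 2, 1 and 3, and 2 and 3.

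Levels are UMI sums per library and class as counts scaled to a common total (CPM) after TMM scaling, which sets the bulk of genes equal between sums. Errors are SD over the 3 libraries (n = 3). Fold changes are log2 with SE from 1 edgeR quasi-likelihood fit over the 21 epithelial sums with library as a block, and p-values are adjusted by Benjamini and Hochberg over the 13472 genes tested, with a threshold of 0.05. All 8 members passed the filter on low counts in every main fit. With every cell at 2000 UMIs, 92 member values over all comparisons could be compared, against 96 in the main fits. With library as a block, the p-values measure how unevenly class differences ran across 3 libraries of pooled mice. They do not cover the spread of levels between libraries or between mice. Fits without the block ignore the pairing of sums from the same library, so differences in level between libraries enter their error. In sums of cells, fewer cells with a transcript and less transcript per cell cannot be told apart.

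The scaling mattered most for superficial cells. Their TMM factors were 0.474 to 0.502, against 1.17 to 1.21 in basal sums. With library totals alone, the median log2 fold change of all genes in superficial against basal cells was -1.29, against -0.02 with TMM. The median under library totals was -1.10 for superficial against wing, -0.41 for conjunctival against basal, -0.20 for wing against basal, 0.12 for limbal against basal and 0.13 for dividing against other TAC2 cells. The share of calls that were higher changed with it, to 22.3% under library totals, against 50.1% with TMM, for superficial against basal cells, and to 16.1% against 49.3% for superficial against wing cells. It became 38.3% against 53.6% for wing and 34.0% against 51.9% for conjunctival against basal cells. For limbal, TAC2 against basal, and TAC2 against TAC1 cells it became 68.7%, 66.3% and 70.7%, against 56.3%, 50.4% and 51.0% with TMM. For dividing cells it became 76.8% in TAC2 and 82.5% in TAC1, against 45.9% and 57.2%. All changes that follow are relative to the TMM median unless library totals are named.

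**Figure D1:**
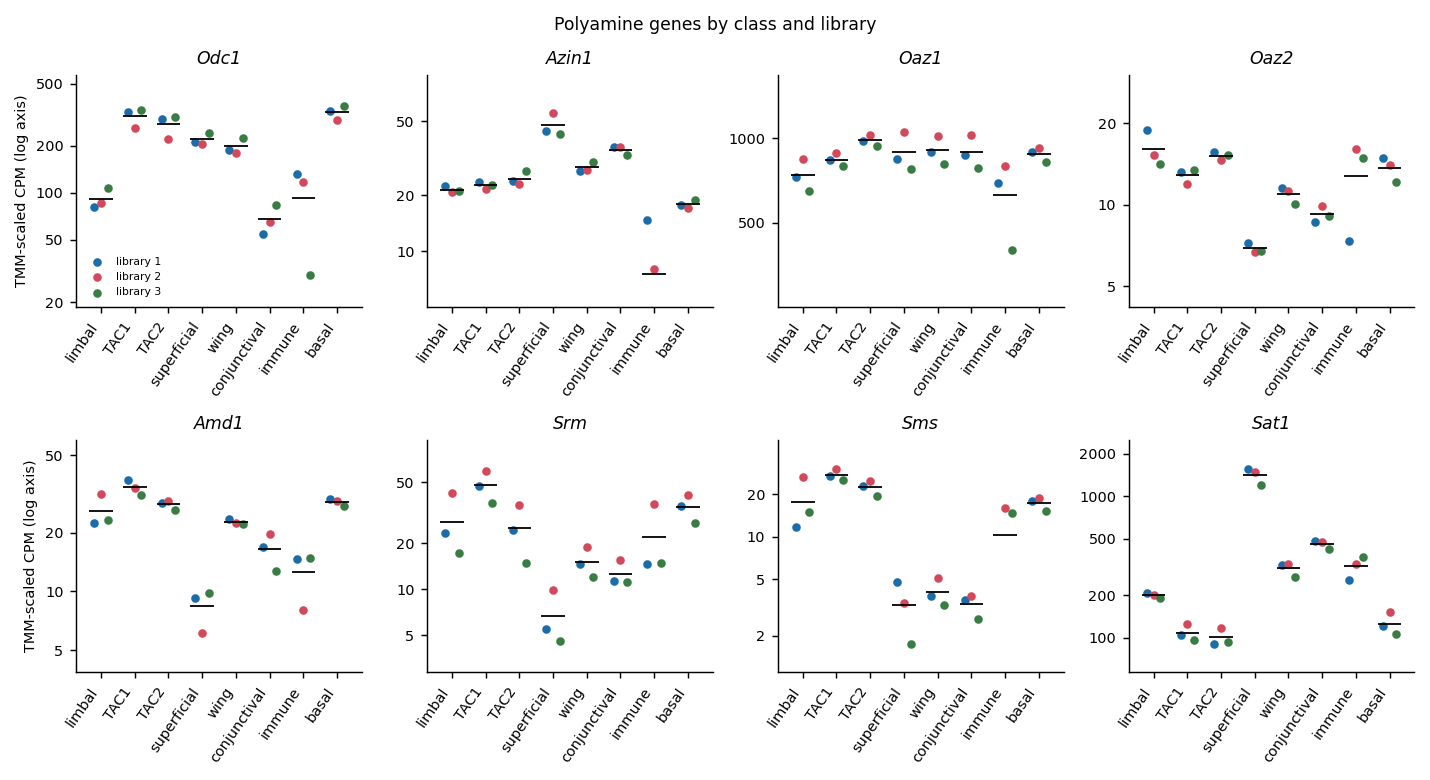
TMM-scaled CPM (log axis) of the 8 genes in each class, with 1 point per library and a line at the mean of 3 libraries; a sum at 0 (Azin1 in immune cells of library 3, Sms in immune cells of library 1) has no point. Sat1 is highest in superficial cells, Odc1 is lowest in conjunctival and limbal cells and immune sums, from 114 cells, scatter most.

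Odc1 was highest in basal cells and lowest in conjunctival and limbal cells. Its level was 81.6, 85.8 and 107 CPM in limbal cells of libraries 1, 2 and 3, against 333, 293 and 357 in basal cells. No limbal sum came near a basal one, and the log2 fold change was -1.84 ± 0.10 (edgeR adjusted p = 4.86e-12). Conjunctival cells had 54.8, 64.5 and 83.8 CPM, a change of -2.28 ± 0.09 from basal cells (edgeR adjusted p = 3.06e-15). The level was 309 ± 41.7 in TAC1, 275 ± 46.9 in TAC2, 219 ± 18.6 in superficial and 198 ± 23.4 in wing cells. In the order basal, TAC1, TAC2, superficial, wing, limbal, conjunctival, the neighbours basal and TAC1, TAC1 and TAC2, and superficial and wing did not differ past the threshold. The place of superficial cells in this order depends on the scaling. Under library totals their Odc1 was 108 CPM against 389 in basal cells (-1.85, where TMM gave -0.58), and limbal over superficial Odc1 was 0.11 (adjusted p = 0.317), against -1.26 ± 0.10 with TMM. With TMM the highest mean was 4.84 times the lowest, and 18 of the 21 pairs of classes differed. The step between TAC2 and superficial cells had an adjusted p of 0.0555 without the library block.

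The lower Odc1 of limbal cells kept its call in every alternative run. The log2 fold change was -2.09 without the cells of highest doublet scores, which took 10.9% of limbal and 1.14% of basal cells, and -1.72 without the 194 limbal cells set aside for mucosal keratins. Leaving out a library gave -1.79 to -1.88. After every cell was thinned to 2000 UMIs, 16.4% ± 3.16 of limbal cells had an Odc1 UMI, against 52.4% ± 3.31 of basal cells, and without thinning 53.8% ± 5.42 against 89.0% ± 4.38. The share was 10.5% ± 2.27 in conjunctival and 18.6% ± 1.26 in superficial cells. No class is known to lack Odc1, so a background share from free RNA could not be read. Conjunctival cells gave the lowest share among the classes.

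Against the whole corneal basal layer (basal, TAC1 and TAC2 cells together) limbal Odc1 was again low, at 102, 106 and 133 CPM against 401, 327 and 418. The log2 fold change was -1.74 ± 0.08 (edgeR adjusted p = 1.09e-15). In this comparison 38.7% of genes passed (19.1% higher and 19.5% lower), and of the members Sat1 was higher and Odc1, Oaz1 and Srm were lower. Srm changed by -0.38 ± 0.11 (edgeR adjusted p = 0.0092), a call lost without library 1 (-0.26) or library 3 (-0.33), without the highest doublet scores (-0.30), without keratin-carrying cells (-0.18) and without the block (adjusted p = 0.538). Oaz1, at -0.26 ± 0.06, lost its call without library 1 and without the block (adjusted p = 0.111).

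Of the antizymes, Oaz1 differed little between classes with TMM, and Oaz2 differed more. Oaz1 ranged between 739 ± 98.7 CPM in limbal and 982 ± 47.5 in TAC2 cells, 1.33 times the lowest mean and the narrowest span of the 8 genes with TMM. Under library totals Oaz1 spanned 2.84 times, with superficial cells lowest, and Azin1 had the narrowest span, 1.48 times. With TMM, the SD of Oaz1 between class means on the log2 scale was 0.13, below its median SD between libraries within a class, 0.16. Oaz1 was lower in limbal cells, at 725, 843 and 647 CPM against 892, 922 and 824 in basal cells, a log2 fold change of -0.26 ± 0.06 (edgeR adjusted p = 0.000417). It was lower in each library, while the limbal value of library 2 lay inside the basal range. Without the block the edgeR adjusted p was 0.126. In superficial cells Oaz1 had 842, 1054 and 777 CPM with a change of 0.01 ± 0.05 from basal cells (edgeR adjusted p = 0.887), but under library totals it was lower by the shift of the whole table, -1.26. Wing (0.04) and conjunctival cells (0.02) also missed the threshold with TMM, while under library totals they passed it at -0.20 and -0.40.

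Oaz2, the less abundant antizyme, was highest in limbal and TAC2 cells, 16.1 ± 2.50 and 15.2 ± 0.490 CPM, and lowest in superficial cells, 7.24, 6.71 and 6.77. Against basal cells (14.9, 14 and 12.1) the superficial change was -0.98 ± 0.10 (edgeR adjusted p = 3.37e-10). The span of Oaz2 was 2.33 times with TMM, where 17 of the 21 pairs of classes differed, and 6.04 times under library totals. The order limbal, TAC2, basal, TAC1 did not contain a step past the threshold. Azin1 ran the other way, with 44.5, 55.6 and 42.8 CPM in superficial cells against 17.7, 17.1 and 18.8 in basal cells, and no overlap. Its change was 1.41 ± 0.08 with TMM (edgeR adjusted p = 3.23e-15) and 0.14 under library totals (adjusted p = 0.108), where the median gene fell. Against wing cells (27.2, 27.4 and 30.1) superficial Azin1 was higher by 0.75 with TMM and lower under library totals, -0.29, so its direction there depends on the scaling. Azin1 was also higher in conjunctival (0.98) and wing cells (0.66) than in basal cells, and both calls held under library totals at 0.56 and 0.42. The wing call was lost with equal cell numbers per class (0.37).

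The enzymes that build spermidine and spermine were lower in wing, superficial and conjunctival than in basal cells, by differing amounts. Amd1 had 9.31, 6.15 and 9.83 CPM in superficial cells against 29.6, 29.1 and 27.4 in basal cells, a change of -1.75 ± 0.13 (edgeR adjusted p = 1.95e-11). Its change was -0.34 in wing and -0.80 in conjunctival cells, both past the threshold. The last 300 bases of the Amd1 transcript matched those of Amd2 over 294 bases without a mismatch. Reads from the 2 genes cannot be told apart there, so both values are uncertain, and Amd2 had 0.555 to 1.61 CPM in the epithelial classes. Of the other members' 3′ ends, only that of Odc1 resembled another annotated gene, Gm15645 (93.4% over 288 bases), which is not analysed here.

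Srm had 5.45, 9.95 and 4.56 CPM in superficial cells and 35.3, 41.2 and 27.1 in basal cells, a change of -2.41 ± 0.13 (edgeR adjusted p = 4.9e-14). All 3 superficial sums lay below all basal ones. TAC1 cells had the highest mean, 47.8 ± 11.4 CPM, 7.18 times that of superficial cells. In the order TAC1, basal, limbal, TAC2, wing, conjunctival, superficial, the steps from basal to limbal, limbal to TAC2 and wing to conjunctival missed the threshold.

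Sms changed most sharply at the step out of the basal layer. Wing cells had 3.82, 5.12 and 3.31 CPM against 18, 18.9 and 15.3 in basal cells, with a log2 fold change of -2.11 ± 0.13 (edgeR adjusted p = 6.07e-12). Superficial cells had 3.30 ± 1.5 and conjunctival cells 3.34 ± 0.622, and neither the step from wing to conjunctival cells (edgeR adjusted p = 0.297) nor that from conjunctival to superficial cells (adjusted p = 0.961) passed the threshold. TAC1 cells had 27.5 ± 2.59 CPM and TAC2 cells 22.4 ± 2.64. Limbal values were spread, at 11.7, 26.6 and 15.1, and held those of basal cells within their range. These levels rest on 36, 143 and 33 Sms UMIs in limbal cells and 69, 42 and 27 in superficial cells of libraries 1, 2 and 3.

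With TMM, Sat1 had the largest ratio of highest to lowest class mean. Its level was 1564, 1484 and 1207 CPM in superficial cells and 121, 151 and 107 in basal cells, a log2 fold change of 3.50 ± 0.08 (edgeR adjusted p = 2e-21). The superficial mean of 1419 ± 187 was 14 times that of TAC2 cells (101 ± 15.1). Conjunctival cells had 462 ± 30.8 and wing cells 312 ± 35.8. Under library totals the superficial change was 2.23 and the span of Sat1 was 5.47 times. This was below the spans of Sms (20.1 times), Srm (17.6 times), Amd1 (9.78 times), Odc1 (6.44 times) and Oaz2 (6.04 times). Each step of the order superficial, conjunctival, wing, limbal, basal passed the threshold, and basal and TAC1 cells (adjusted p = 0.0596) and TAC1 and TAC2 cells (adjusted p = 0.345) did not differ past it. Limbal Sat1 was 209, 201 and 191 CPM, above every basal sum, with a change of 0.67 ± 0.08 (edgeR adjusted p = 5.89e-07), and 0.52 without keratin-carrying limbal cells.

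Within superficial cells Sat1 was unevenly spread. At 2000 UMIs per cell, 64.0% ± 1.89 of superficial cells had a Sat1 UMI (96.9% ± 2.47 without thinning), against 25.1% ± 2.94 of basal cells (64.7% ± 14.1). The variance of the counts was 2.62 ± 0.751 times their mean in superficial cells and 1.07 ± 0.0533 times in basal cells, where a value of 1 is that of counting noise alone. Of the superficial cells 6.44% ± 1.97 had 5 or more Sat1 UMIs, against 0.0133% ± 0.0230 of basal cells. Mean Sat1 UMIs per cell were 1.46 ± 0.185 in superficial and 0.300 ± 0.0480 in basal cells. Both measures can rise with the mean, so the contrast with basal cells is not one of spread alone. Oaz1 showed no such spread, with ratios of 1.17 in superficial and 1.07 in basal cells.

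**Figure D2:**
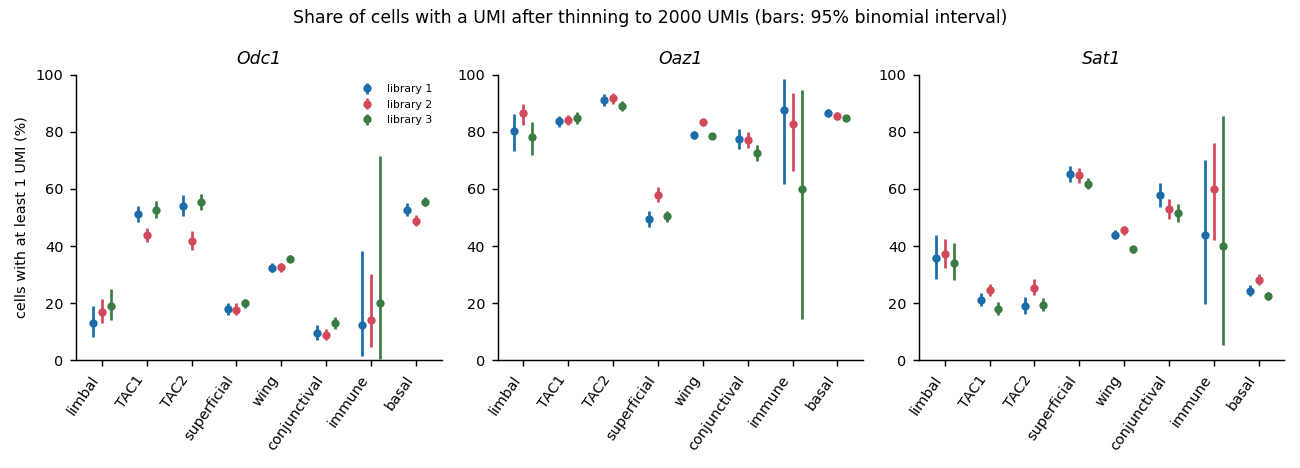
Share of cells (%) with at least 1 UMI of Odc1, Oaz1 or Sat1 after thinning each cell to 2000 UMIs, by class and library (points, with exact 95% binomial intervals that cover counting error only). Odc1 was found in 10.5% of conjunctival and 52.4% of basal cells on average, and Sat1 in 64.0% of superficial cells.

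In superficial against basal cells 2 of the 8 genes were higher (Azin1, Sat1) and 5 lower (Srm, Oaz2, Amd1, Odc1, Sms), where 85.2% of all genes tested passed the threshold (42.7% higher and 42.5% lower). Under library totals the superficial changes of Srm, Sms, Amd1 and Oaz2 were -3.69, -3.67, -3.01 and -2.25. The same 2 were higher and the same 5 lower in wing cells, with 74.1% of genes passing (39.7% higher and 34.4% lower), and in conjunctival cells, with 76.3% passing (39.6% higher and 36.7% lower). The share of members called was near these backgrounds in all 3 comparisons, which share the basal sums. The median change of the members was -0.78 in superficial, -0.33 in wing and -0.68 in conjunctival cells, against -0.02, 0.04 and 0.00 for all genes. In limbal against basal cells 1 gene was higher (Sat1) and 2 lower (Odc1, Oaz1), against 40.4% of all genes (22.8% higher and 17.7% lower). Under library totals 5 passed, with Azin1 (0.36) and Oaz2 higher besides. In superficial against wing cells Azin1 and Sat1 were higher and Srm, Oaz2 and Amd1 lower, against 76.0% of genes (37.5% higher and 38.5% lower), and under library totals all 8 passed, Odc1 at -0.89 and Sms at -1.33 among them.

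**Figure D3:**
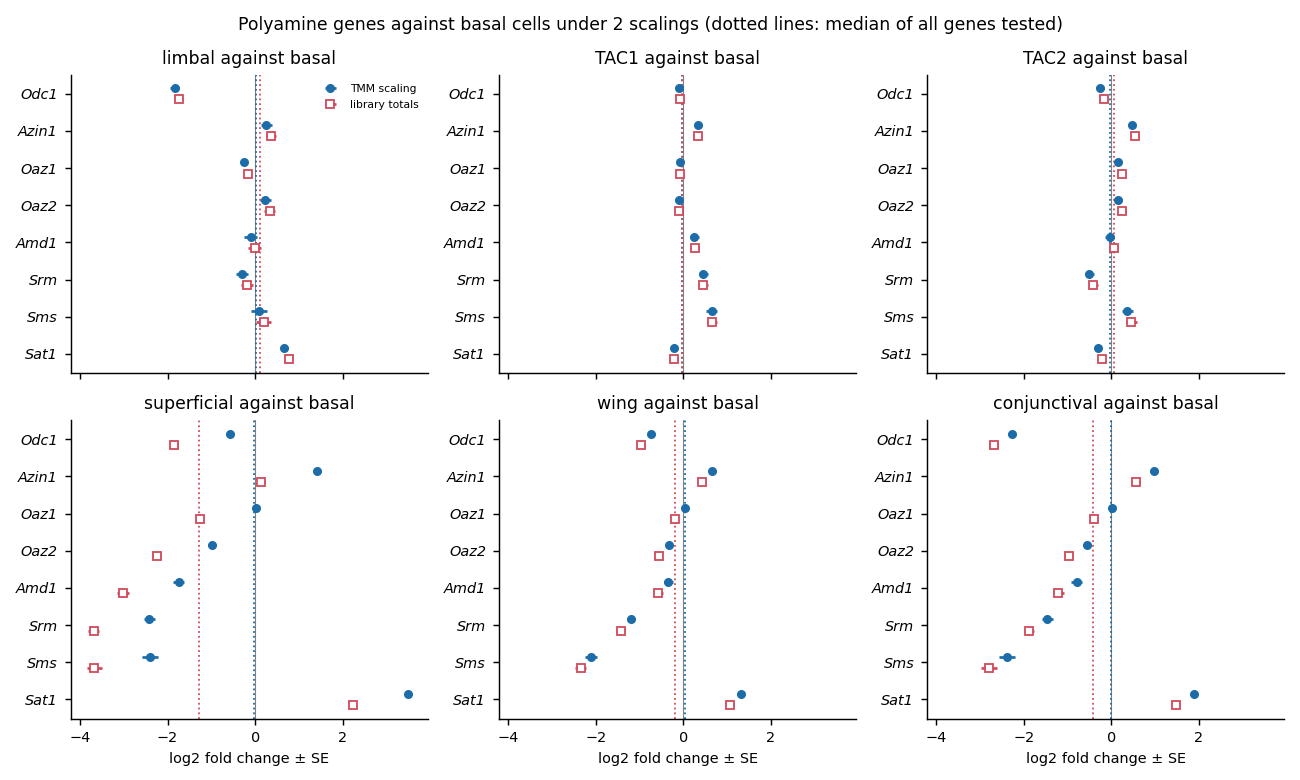
Log2 fold change (± SE) of each gene against basal cells in 6 classes, with TMM scaling (filled circles) and library totals (open squares); dotted lines mark the median of all genes tested. The scalings lie close together in limbal, TAC1 and TAC2 cells and differ by more than 1 log2 unit in superficial cells.

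Across the 21 sums, after each library's mean log level was removed, Amd1, Srm, Sms and Oaz2 moved together and opposite to Sat1 and Azin1. Pearson's r was 0.90 between Amd1 and Srm, 0.88 between Srm and Sms and 0.81 between Oaz2 and Srm. It was -0.94 between Amd1 and Sat1, -0.93 between Srm and Sat1 and 0.88 between Azin1 and Sat1. Odc1 stood apart, with r of 0.35 with Srm and -0.38 with Sat1, and Oaz1 had -0.02 with Sat1. The sums share libraries and scaling, and classes carry most of the variation, so these are descriptions. Among genes with a mean level of at least 20 CPM, genes close to Sat1 were Prkch (r = 0.998) and Gm2a. The closest to Odc1 were Cd164, Efnb1 and Sgk3 (0.96 each). Those of Srm were Eef1g, Apex1 and Rps26, of Amd1 Wdr43, Clpp and Clns1a, and of Sms Atic, Bcam and Cfl1 (0.97 to 0.98 in all 9). Oaz2 was closest to Tia1, Pdgfa and Nfix and Azin1 to Arpp19, Derl1 and Cox5a (0.96 to 0.97). For Oaz1 the closest were Timm17b (0.92), Mapre1 and Bzw1.

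Some members also differed between libraries in the same way in each class. Odc1 was highest in library 3 in 7 of 7 epithelial classes, with a mean of 236 CPM over classes against 214 and 187 in libraries 1 and 2. Oaz1 and Srm were highest in library 2 in 7 of 7, Oaz1 at 968 CPM against 864 and 796 and Srm at 31.8 against 23.2 and 17.6 in libraries 1 and 3. Library 2 was the only one from females, and sex, age, depth and the mice of a pool cannot be told apart with 1 library each, so no test was made.

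In TAC1 against basal cells 3 genes were higher, Sms (0.65 ± 0.12, edgeR adjusted p = 0.000474), Srm (0.46 ± 0.10, adjusted p = 0.00149) and Azin1 (0.34 ± 0.09, adjusted p = 0.00428), and none was lower, with 23.9% of all genes passing (13.7% higher and 10.2% lower). TAC1 values of Sms were 26.8, 30.4 and 25.4 CPM, above all basal values. Srm had 47.3, 59.4 and 36.6, and the last lay within the basal range. These calls depended on the fit. Without the block Srm had an adjusted p of 0.448 and Sms 0.0728, and with equal cell numbers per class none of the 3 passed. Without library 1 the Azin1 call was lost (0.32), and at 2000 UMIs per cell that of Srm (0.26).

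In TAC2 against basal cells Azin1 (0.46), Sms (0.36) and Oaz1 (0.16) were higher and Srm (-0.51), Sat1 (-0.31) and Odc1 (-0.26) lower, against 39.7% of genes (20% higher and 19.7% lower). Srm had 24.6, 35.5 and 14.8 CPM in TAC2 cells against 35.3, 41.2 and 27.1 in basal cells, lower in each library while the ranges overlapped. All but Azin1 lost the call without the block, with adjusted p of 0.104 to 0.386. Without library 3 only Azin1 and Srm passed, and Sat1 (-0.38), Oaz1 (0.14), Sms (0.36) and Odc1 (-0.29) did not. Odc1 also lost its call without library 2 (-0.19) and Sms without library 2 (0.36), and Oaz1 without library 1 (0.18). Odc1 missed the threshold under library totals as well, at -0.17.

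Against TAC1, TAC2 cells had lower Srm, 24.6, 35.5 and 14.8 CPM against 47.3, 59.4 and 36.6, lower in each library, with a change of -0.96 ± 0.11 (edgeR adjusted p = 3.48e-07). Amd1 was lower by -0.30 ± 0.11 (adjusted p = 0.0485), and Oaz1 (0.23) and Oaz2 (0.26) were higher, with 28.4% of all genes passing (14.5% higher and 13.9% lower). Without the block none of the 4 passed, and Srm had 0.0724. Srm kept its call in every other setting. Without library 1 Oaz1 (0.22), Oaz2 (0.25) and Amd1 (-0.25) were lost, without library 2 Oaz2 (0.23), and without library 3 Oaz2 (0.26) and Amd1 (-0.32).

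Dividing cells, those with a UMI of Mki67 or Top2a at 2000 UMIs, were set against the other cells of the same class. The rule misses dividing cells whose marker UMIs were not drawn, and can take in cells with a stray UMI. Mki67 and Top2a had 14.2 ± 3.93 and 35.6 ± 6.73 CPM in TAC1 cells, against 280 ± 22.0 and 368 ± 21.4 in TAC2 cells. How well the rule parts dividing from other cells in each class was not tested. In TAC2 they were 413, 593 and 787 cells against 281, 348 and 577 others, and they were deeper, with median UMIs of 16793, 15436 and 8749 against 12377, 10168.5 and 6066. Srm was lower in dividing TAC2 cells, at 25.6, 37.7 and 16.9 CPM against 41.7, 59.1 and 21.7 in other TAC2 cells, with a change of -0.61 ± 0.10 (edgeR adjusted p = 7.36e-09). Oaz1 had 1121, 1209 and 1073 CPM in dividing cells against 1445, 1453 and 1349, with no overlap, and a change of -0.32 ± 0.04 (edgeR adjusted p = 8.06e-14). Odc1 (-0.27) and Sat1 (-0.15) were lower and Sms (0.36 ± 0.11) higher, and 31.5% of all genes passed (14.4% higher and 17% lower). In every comparison of dividing cells the calls of members were lost without the block, here with adjusted p of 0.066 for Oaz1 and 0.465 for Srm. The Sat1 call was also lost without library 1 (-0.15) or library 3 (-0.06) and under library totals (-0.01), and that of Sms without library 2 (0.34) and with 2 or more UMIs of Mki67 or Top2a as the rule (0.15). At 2000 UMIs per cell Odc1 missed the threshold (-0.20).

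In TAC1, with 105, 217 and 103 dividing cells against 1230, 1414 and 1037 others, Oaz1 was lower by -0.14 ± 0.03 and Odc1 by -0.23 ± 0.04, and Azin1 was higher by 0.38 ± 0.12 (edgeR adjusted p = 0.038), against 10.7% of genes (6.15% higher and 4.59% lower). Azin1 lost its call without library 1 (0.24) or library 2 (0.44), Odc1 without library 2 (-0.17), and Oaz1 under library totals (-0.07). Srm had 65.9, 72.1 and 41.6 CPM in dividing TAC1 cells against 56.5, 72.3 and 44.7 in other TAC1 cells. The difference between its changes in TAC2 and TAC1 was -0.61 ± 0.15 (edgeR interaction, adjusted p = 0.0204), where 2.17% of genes passed.

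In limbal cells, with 9, 35 and 16 dividing cells against 153, 311 and 203 others, 0 of the 8 passed in edgeR and in DESeq2, and 3.86% of all genes did in edgeR (3.14% higher and 0.725% lower). Odc1 alone had an unadjusted p under 0.05, with 216, 118 and 183 CPM in dividing cells against 96.6, 109.8 and 138 in other limbal cells (0.53 ± 0.19, adjusted p = 0.157).

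**Figure D4:**
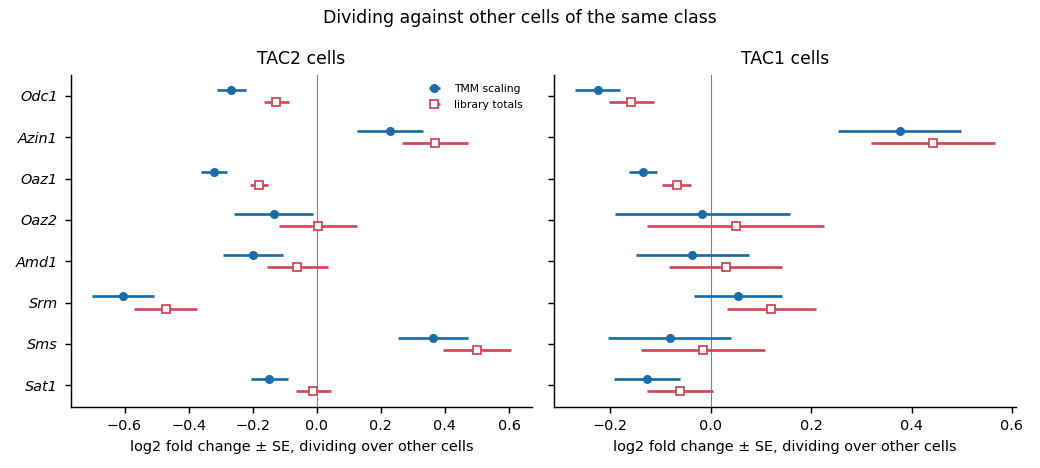
Log2 fold change (± SE) of each gene in dividing over other cells within TAC2 (left) and TAC1 (right), with TMM scaling (filled circles) and library totals (open squares); the panels have different horizontal ranges. Srm is lower in dividing TAC2 cells (-0.61) and near 0 in dividing TAC1 cells (0.05).

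The other genes of polyamine metabolism came from a list of 32, of which 30 were in the table and 28 entered the joint fit. In superficial against basal cells 13 were higher and 15 lower, in wing cells 10 and 12, in conjunctival cells 11 and 13 and in limbal cells 8 and 6. The shares called among all genes in these 4 comparisons were 85.2%, 74.1%, 76.3% and 40.4%, and the list's shares are read against them as no result of their own. Arg1, the arginase that makes ornithine, was higher in superficial cells, at 667, 731 and 565 CPM against 2.81, 3.14 and 1.65 in basal cells, a log2 fold change of 8.05 ± 0.18 (edgeR adjusted p = 1.05e-15). Wing cells had 132, 102 and 77.9 CPM, and conjunctival cells 186, 202 and 112. Limbal cells had 30.3, 21.5 and 18.7 (3.18 ± 0.25), a call lost without their keratin-carrying cells (1.37). Smox, the spermine oxidase, had 365, 387 and 295 CPM in superficial cells against 11.0, 11.1 and 9.79 in basal cells (5.03 ± 0.08, edgeR adjusted p = 1.77e-28). Both stayed higher under library totals, at 6.77 and 3.75. Limbal Smox was higher by 0.50 than in basal cells, and lost its call without library 1 (0.36). It changed direction without the highest doublet scores (-0.20) and without keratin-carrying cells (-0.12).

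Of the 5 tested genes of ornithine and arginine supply, Arg1 and Asl (0.35 ± 0.08) were higher and 3 lower in superficial cells with TMM, and under library totals Asl was lower (-0.92). Oat, ornithine aminotransferase, had 69.9, 70.5 and 54.3 CPM in superficial cells and 425, 439 and 403 in basal cells (-2.71 ± 0.07). Ass1, argininosuccinate synthase, changed by -3.77 ± 0.11 and Slc7a1, an arginine carrier, by -2.97 ± 0.08. In limbal cells Oat, Slc7a1, Asl and Ass1 were also lower, by -0.70, -0.95, -0.78 and -0.33, and the Ass1 call was lost without library 1 (-0.30) and without keratin-carrying cells (-0.07). Mat2a, which makes S-adenosylmethionine, was higher in superficial cells (1.45, and 0.18 under library totals), while Adi1 (-3.05) and Apip (-2.03) of methylthioadenosine salvage were lower. Of the 7 genes listed for S-adenosylmethionine supply and methylthioadenosine salvage, 4 were higher and 3 lower there with TMM. Of the other polyamine degrading genes, Sat2 was lower in superficial cells (-4.24 ± 0.33) and so was Paox (-0.64 ± 0.12). Sat2 had only 6 UMIs in superficial cells of all libraries together, against 254 in basal cells, so the size of its change is uncertain.

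Among the hypusination genes, Eif5a, the protein that carries the spermidine-derived hypusine, changed by -0.19 in superficial cells (-1.46 under library totals). Dohh, the last enzyme of hypusination, changed there by 1.73 ± 0.06 (0.46 under library totals). Slc3a2, a transporter subunit linked to polyamine export, was higher by 0.99 with TMM and lower under library totals, -0.28. Of the 4 tested genes of polyamine transport, 2 were higher and 2 lower in superficial than in basal cells with TMM. The lower ones were Atp13a2 (8.83 ± 0.563 against 11.9 ± 2.13 CPM) and Slc18b1 (4.07 ± 0.218 against 6.50 ± 1.12). Myc, a known activator of Odc1, had 1.45, 1.78 and 2.60 CPM in superficial cells against 15.6, 14.8 and 13.7 in basal cells (-2.90 ± 0.25), its partner Max was higher (2.18 ± 0.07, and 0.90 under library totals) and Mycl lower (-1.39 ± 0.12). Limbal Myc, 9.14, 12.6 and 12.3 CPM, did not pass (-0.35 ± 0.25, edgeR adjusted p = 0.292). Oaz3, a germ cell antizyme, had 54 UMIs in superficial and 2 in basal cells, and Eif5a2 had 11 in limbal and 19 in basal cells, too few for a fold change to be given.

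**Figure D5:**
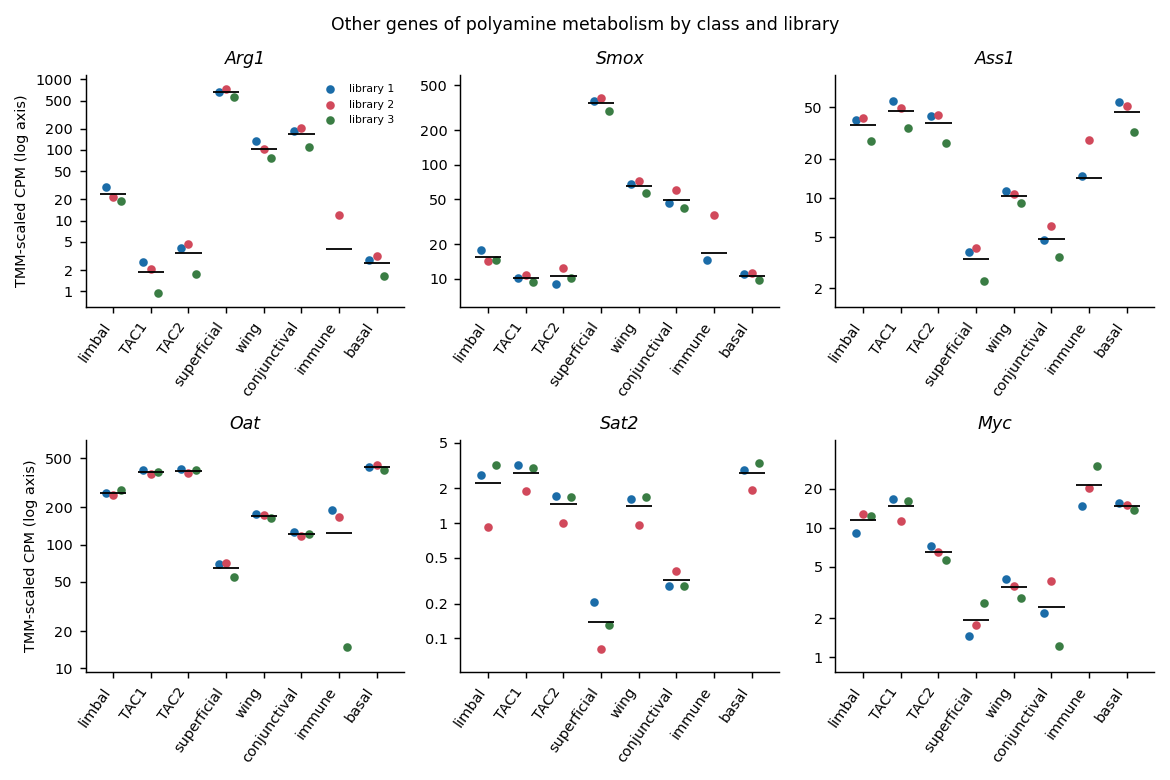
TMM-scaled CPM (log axis) of 6 other genes of polyamine metabolism by class, with 1 point per library and a line at the mean; sums at 0 have no point. Arg1 and Smox are highest in superficial cells, and Oat and Ass1 are lowest there.

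Immune cells, 114 in all, were outside the fit. Their Sat1 was 257, 333 and 371 CPM and their Odc1 132, 116 and 29.7, on 18, 29 and 2 Odc1 UMIs. Azin1 had 2, 2 and 0 UMIs there, and Sms 0, 4 and 1. At this depth a listed 0 leaves room for as many as 3 UMIs, and that limit covers counting error only. Krt12, the corneal keratin, had 4404 ± 2792 CPM in immune sums, and its part in these levels was not tested.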

How the data were processed

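Dissociated corneal epithelial cells were sequenced as 3 pooled 3′ single-cell libraries. The authors deposited raw UMI counts per gene and cell for 38111 cells, with a library and a class for each; the submitters' processing notes name Cell Ranger 5.0.0, Seurat 4 and the mm10 build. Filters, doublet handling and the making of class labels are, in the sources used here, not given.

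UMI counts were summed per library and class and tested with edgeR 4.0.16 (limma 3.58.1, R 4.3.3): TMM scaling, filterByExpr, robust quasi-likelihood F tests, library as a block and Benjamini-Hochberg adjustment. Sums with the same number come from the same mice by construction, which is the pairing the block uses. Separate fits of 6 sums compared limbal cells with the whole basal layer (12898 genes) and dividing with other cells (10771 genes in TAC2, 10752 in TAC1, 7585 in limbal cells). Immune cells were scaled to the same standard but not tested. For shares of cells, 609 cells under 2000 UMIs were left out. The script was tested on simulated counts. Other pathway genes were named by a rule of call and size, and Asl, Slc7a1 and Amd2, which are outside it, were chosen after their values were seen. The members and all lists were chosen with earlier results of these data known. Alternatives covered the block, scaling, low-count filter, DESeq2, depth, cell numbers, doublet scores (highest 5% left out), keratin-carrying limbal cells (3 or more UMIs) and each library.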

Additional observations from a re-analysis of the deposited data

Results flagged for a closer look

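Srm was the member whose change with division differed between the transit-amplifying classes. In dividing against other cells it changed by -0.61 ± 0.10 in TAC2 and by 0.05 in TAC1, and the difference of -0.61 ± 0.15 passed the edgeR interaction test (adjusted p = 0.0204), in which 2.17% of 11141 genes passed. In TAC2 all 3 libraries were lower in dividing cells. The test was added after the data were seen, and dividing TAC2 cells were deeper than other TAC2 cells in each library. Mki67 and Top2a, which define the split, were far lower in TAC1 (14.2 and 35.6 CPM) than in TAC2 cells (280 and 368 CPM). The split may therefore part dividing cells less well in TAC1, which was not tested, so the change near 0 there is not read as an absence of effect. With every cell at 2000 UMIs, Srm changed by -0.94 in TAC2 (edgeR adjusted p = 0.000765) and by -0.17 in TAC1 (adjusted p = 0.84), and the difference between them was not fitted at that depth.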

How the results depend on the processing

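Members called in superficial, wing and conjunctival against basal cells stayed at 7 without any library. Library totals, added after seeing the data, gave 5 in limbal against basal and 8 in superficial against wing cells. Without the library block the count was 1 in TAC1 and 1 in TAC2 against basal cells, 0 in TAC2 against TAC1, 2 in limbal against the whole layer, and 0 in dividing TAC2 and 0 in dividing TAC1 cells. Fitting only the 2 classes gave 6 for TAC1 against basal and 7 for TAC2 against TAC1. Equal cell numbers, which leave fewer cells, gave 0, 3 and 2 for TAC1 and TAC2 against basal and TAC2 against TAC1. Cells at 2000 UMIs gave 2 for TAC2 against TAC1 and 3 for dividing TAC2 cells, where DESeq2 also gave 3. Leaving out a library gave 2 to 4 for TAC1 and 2 to 5 for TAC2 against basal, 1 to 3 for TAC2 against TAC1, 2 to 6 for limbal against the layer and 1 to 3 for dividing TAC1 cells. Of 54 calls of members, 22 were lost without the block and 9, 6 and 8 without library 1, 2 and 3.

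Some directions changed. Limbal Smox became -0.20 and -0.12 against basal cells and -0.12 and -0.035 against the layer without the highest doublet scores and without keratin-carrying cells. With equal cell numbers Dohh in TAC2 against basal cells became -0.021 and Azin1 in superficial over conjunctival cells -0.0084. Library totals gave -0.28 for Slc3a2 and -0.92 for Asl in superficial against basal cells, -0.29 for Azin1 and -0.012 for Dohh against wing cells, 0.0091 for Oat in dividing TAC2 cells, -0.43 for Azin1 in superficial over conjunctival cells and -0.12 in wing over TAC2 cells. The cause was not tested.

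Over all genes, dividing against other cells had 430, 265 and 143 calls without the block in TAC2, TAC1 and limbal cells, against 3389, 1155 and 293 with it, and 1293, 465 and 145 in DESeq2. Without it TAC1 and TAC2 against basal and TAC2 against TAC1 had 1392, 3096 and 1694, against 3215, 5348 and 3827. At 2000 UMIs these had 1524, 2578 and 1547, limbal against basal 2196 against 5448, wing 6646 against 9989, conjunctival 6753 against 10280, limbal against the layer 2046 against 4987, and division 1441, 397 and 29. Equal cell numbers gave limbal 3605, TAC1 1039, TAC2 2523, wing 6056, superficial against wing 6807 against 10237 and TAC2 against TAC1 1660. TAC1 against basal had 5113 with only 2 classes, 1706 without library 1 and 1981 without library 2. TAC2 against TAC1 had 2138 without library 1, and dividing TAC1 cells 644 without library 1, 630 without library 2 and 411 with 2 UMIs of Mki67 or Top2a.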
